A study of Mus musculus with 12 samples.

Results

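The genes described here were 10 adhesion molecules of mouse mast cells: the integrin subunits *Itga2b*, *Itgb3*, *Itga4*, *Itgb7*, *Itgb1*, *Itga5* and *Itgb2*, the integrin ligand *Icam1*, the cell adhesion molecule *Cadm1* and the hyaluronan receptor *Cd44*. They were taken from the table by symbol. All 10 were found among the 16234 genes of the table, and all 10 were among the 12208 genes with enough counts to be tested.

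Integrins are heterodimers of an α and a β subunit that bind extracellular matrix or counter-receptors on other cells once signals from inside the cell have switched them to their active form. Mast cell progenitors use α4β7 to enter the intestine, and mature mast cells adhere to fibronectin through α4β1 and α5β1 and to vitronectin through αVβ3. The subunit αIIb, best known from platelets, is also made by bone marrow-derived mast cells, and there as in platelets it pairs with β3. The β2 subunit is shared by the leukocyte integrins that bind ICAM-1, CADM1 joins mast cells to fibroblasts and neurons by binding itself or its relatives, and CD44 binds hyaluronan.

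Bone marrow-derived mast cells (BMMCs) were grown for 4 to 8 weeks with IL-3 and SCF from mice of 6 to 12 weeks that carried a conventional, body-wide *Elk4* knockout on C57BL/6N, a line in which the transcription factor ELK4 is targeted. The genotype labels were WT (littermates with intact *Elk4*), HZ (heterozygous) and KO (homozygous). RNA was sequenced from unstimulated cells, and from cells that had been loaded with 0.5 μg/ml anti-DNP IgE and then given 100 ng/ml of the antigen DNP-HSA for 1 h, which cross-links the IgE receptor FcϵRI. Each of the 6 groups had 2 libraries, and nothing in the sources used here says whether these came from separate mice or cultures, so the p-values measure only the spread between these libraries, which may be technical. The sex of the donor mice was not given for any library, and whether the unstimulated cells had also received IgE was not given in the sources used here.

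Library totals lay between 29697958 and 35531667 counts. *Elk4* itself did not follow the genotype labels: it stood at 63.5 to 78.3 CPM (read counts scaled to a common library size) in the libraries labelled WT or KO and at 63.7 to 93.2 CPM in those labelled HZ. Which part of the gene was deleted is not given in the sources used here, so this level neither checks nor contradicts the labels, and groups are named by their labels throughout. All 10 mast cell markers examined were tested, with a summed level of 46575 to 57243 CPM led by *Cpa3*, *Cma1* and *Tpsb2*. The neutrophil and the T and B cell lists summed to at most 0.269 and 0.0695 CPM. The eosinophil list summed to at most 3.57 CPM. The basophil list summed to 596 to 601 CPM in unstimulated WT, 673 to 674 in HZ and 469 to 473 in KO. Stimulated libraries held 520 to 522 CPM in WT, 465 to 472 in HZ and 513 to 521 in KO. Most of this was *Cd200r3*, at 454 to 667 CPM, while *Mcpt8* had 151 to 362 counts and *Prss34* 12 to 56. The part of basophils in the results was not tested. CPM values were scaled by TMM, edgeR's correction for differences in library composition, and in such bulk samples fewer cells of a type and less RNA per cell cannot be told apart.

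Windows upstream of the gene start were held by the RefSeq promoter table of build GRCm38.p6 for 7 of the 10 genes. Windows of 3 are shown, because *Itga4* was the member with such a window that was highest relative to WT, *Cd44* was lower in KO than in WT in both states, and *Icam1* had the most matches to the letters that ETS factors such as ELK4 recognise.

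Itga4, chr2:79255176-79255425, plus strand: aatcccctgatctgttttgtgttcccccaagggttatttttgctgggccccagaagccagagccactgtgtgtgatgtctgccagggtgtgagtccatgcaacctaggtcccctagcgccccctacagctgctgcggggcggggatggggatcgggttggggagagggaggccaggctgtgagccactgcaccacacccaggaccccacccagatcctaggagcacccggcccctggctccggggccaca

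Cd44, chr2:102901666-102901915, minus strand: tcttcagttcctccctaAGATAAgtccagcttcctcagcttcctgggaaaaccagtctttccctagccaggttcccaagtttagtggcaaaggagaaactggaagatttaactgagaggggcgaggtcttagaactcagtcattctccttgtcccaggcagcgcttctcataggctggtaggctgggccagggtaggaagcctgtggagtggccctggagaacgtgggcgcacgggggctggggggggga

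Icam1, chr9:21015690-21015939, plus strand: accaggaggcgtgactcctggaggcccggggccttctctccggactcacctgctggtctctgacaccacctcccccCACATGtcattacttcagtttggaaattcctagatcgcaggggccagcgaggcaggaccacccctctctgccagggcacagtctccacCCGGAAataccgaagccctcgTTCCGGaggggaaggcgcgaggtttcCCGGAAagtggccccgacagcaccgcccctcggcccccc

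Each run holds the 250 bases before the RefSeq start, written 5′ to 3′ on the strand of the gene, and capitals mark matches on either strand to any motif searched. The motifs were the ETS core CCGGAA, the GATA motif AGATAA, the AP-1 motif TGANTCA, the E-boxes CACGTG and CATGTG that MITF recognises, and the CArG box bound by the ELK4 partner SRF. They were searched in windows that ran on for a further 50 bases. The ETS core was present in the windows of *Itgb1* and *Icam1* and in 14.9% of all 32851 windows. In *Icam1* it began at positions -86, -65 and -39 counted from the RefSeq start, the second of them on the opposite strand. For *Icam1* and *Itga5* the start of no GENCODE transcript was found in the window, so positions there depend on the RefSeq start. An E-box was held by *Itgb7* and *Icam1* (20.4% of all windows) and the GATA motif by *Cd44* (11.2%). None of the 7 windows held the AP-1 motif or the CArG box, which were in 7.81% and 1.63% of all windows. A match describes letters in the window and not a bound site.

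Per transcript length, *Itga2b* was by far the most abundant of the 10 genes. Its deposited FPKM lay between 406 and 760 in the 12 libraries, which ranked it 93 among the 16234 genes by mean FPKM. *Itgb7* followed at 78.0 to 126 FPKM and *Itgb1* at 34.1 to 44.1 FPKM, and these 3 kept that order in every group without overlap of their libraries. *Itga4* was the lowest member in every group, at 0.111 to 0.696 FPKM. The middle of the order differed by group. In unstimulated WT cells *Cd44* (13.9 and 14.5 FPKM) led *Itga5*, *Icam1* and *Itgb2*, while *Itgb3* (1.52 and 1.90 FPKM) could not be separated from *Cadm1* (1.70 and 1.90 FPKM). In unstimulated KO cells *Itgb3* (17.8 and 16.9 FPKM) stood directly below *Itgb1*. The lengths implied by counts and FPKM were 24.6 kb for *Cadm1* and 13.2 kb for *Itga4*, so their FPKM values rest on long gene models.

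**Figure D1:**
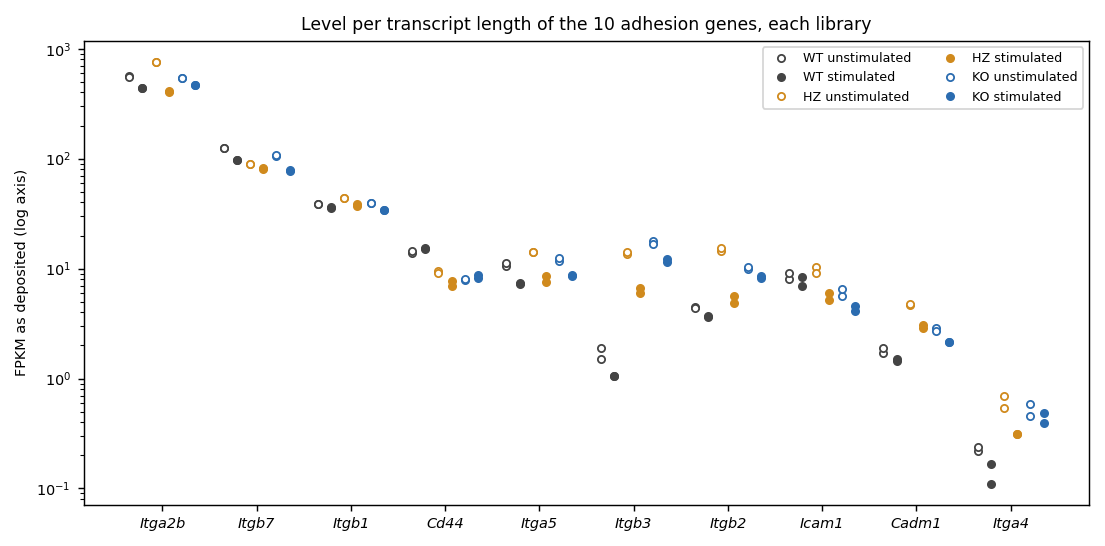
Deposited FPKM (log axis) of the 10 genes, ordered by their mean, with each point a library, open for unstimulated and filled for stimulated cells, in grey for WT, orange for HZ and blue for KO. *Itga2b*, *Itgb7* and *Itgb1* sit apart at the top in all groups, and *Itgb3* is the gene whose position shifts most, from 1.05 to 17.8 FPKM.

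The clearest difference between genotypes was in *Itgb3*, the β3 partner of αIIb. In unstimulated cells it stood at 8.12 and 10.1 CPM in WT, 75.4 and 78.1 CPM in HZ and 95.9 and 91.4 CPM in KO. In stimulated cells the values were 6.93 and 6.98 CPM in WT, 42.6 and 38.6 CPM in HZ and 76.6 and 81.3 CPM in KO. Every HZ and KO library lay above every WT library, and HZ and KO libraries did not overlap in either state. In the quasi-likelihood test of edgeR, whose p-values were adjusted over all genes tested by Benjamini-Hochberg, unstimulated KO was 10.3-fold above WT (log2 fold change 3.36 ± 0.078 SE, adjusted p = 2.07e-35). Unstimulated HZ was 8.41-fold above the same WT libraries (log2 fold change 3.07 ± 0.079, adjusted p = 1.01e-33). After stimulation the differences from WT were 11.3-fold for KO and 5.83-fold for HZ, and KO was 1.94-fold above HZ (log2 fold change 0.96 ± 0.066, adjusted p = 2.45e-16). *Itgb3* took rank 69 among 12208 genes when these were ordered from highest to lowest log2 fold change of unstimulated KO against WT, and rank 57 in stimulated cells.

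*Itga2b*, which encodes αIIb, showed no such difference between KO and WT. It stood at 1739 and 1695 CPM in unstimulated WT and at 1701 and 1694 CPM in unstimulated KO, and the libraries nearly coincided. The log2 fold change was -0.02 with an interval, 2 SE on each side, from -0.06 to 0.03 (adjusted p = 0.57 by edgeR). Unstimulated HZ libraries were higher, at 2413 and 2420.4 CPM, a log2 fold change of 0.49 ± 0.022 from WT that stayed under the 1.5-fold threshold. The ratio of *Itga2b* to *Itgb3* in FPKM was accordingly 291 to 371 in unstimulated WT, 53.8 to 55.5 in HZ and 30.7 to 32.2 in KO libraries, and αIIb message remained in excess over that of β3 in all 12. Because these subunits also mark platelets and their precursors, that list was examined: *Pf4*, *Gp1bb* and *Gp6* had at most 9 counts in any library and *Gp9* 3 to 38, whereas *Gp1ba* and *Vwf* were expressed at 320 to 436 CPM and 440 to 543 CPM. The 6 listed genes present in the table summed to 760 to 777 CPM in unstimulated WT, 939 to 966 CPM in HZ and 831 to 839 CPM in KO.

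**Figure D2:**
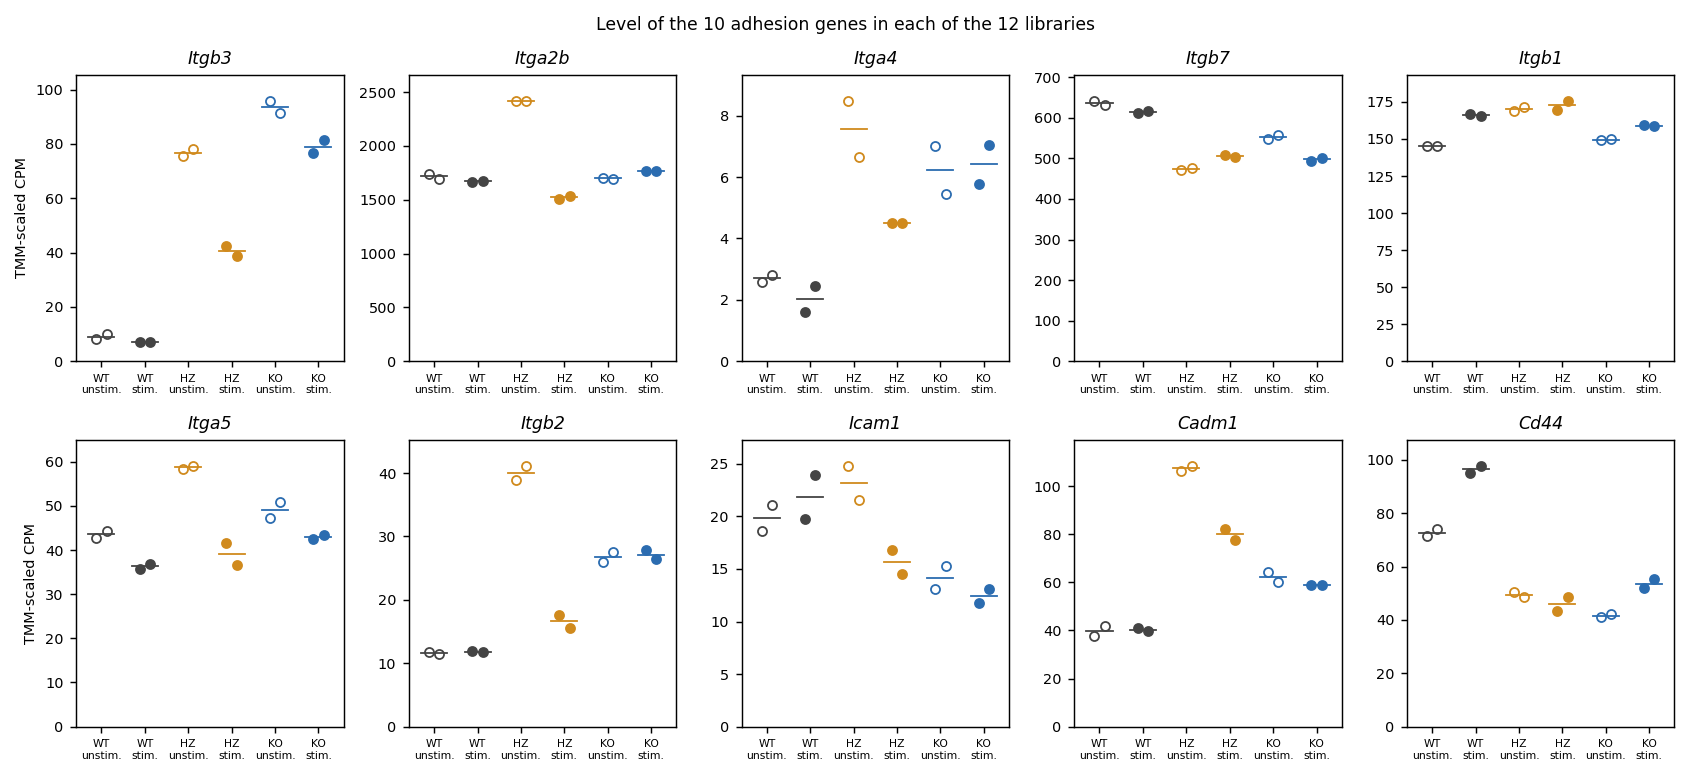
TMM-scaled CPM (linear axes from 0) of each gene in the 12 libraries, open circles for unstimulated and filled for stimulated cells, with bars at the mean of the 2 libraries of a group. *Itgb3*, *Itga4*, *Itgb2* and *Cadm1* are lowest in the WT libraries, *Cd44* and *Itgb7* are highest there, and *Itgb2* drops from a mean of 40.0 to 16.6 CPM on stimulation in the HZ libraries.

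Among the fibronectin and VCAM-1 binding integrins, the α4 subunit differed with genotype and the other subunits little. *Itga4* was at 2.60 and 2.80 CPM in unstimulated WT, 8.49 and 6.64 CPM in HZ and 7.01 and 5.44 CPM in KO. In stimulated cells it was at 1.62 and 2.45 CPM in WT, 4.51 and 4.50 CPM in HZ and 5.79 and 7.05 CPM in KO. All HZ and KO libraries exceeded all WT libraries, and unstimulated HZ and KO libraries overlapped. It was 2.31-fold above WT in unstimulated KO (log2 fold change 1.21 ± 0.21, adjusted p = 4.29e-06) and 3.15-fold in stimulated KO (1.66 ± 0.22, adjusted p = 3.05e-08) by edgeR. HZ was 2.80-fold and 2.21-fold above WT in the same states. By limma on log2(FPKM + 1) without a filter, none of these 4 differences passed the fold threshold, at 0.31 and 0.34 for KO and 0.40 and 0.21 for HZ in unstimulated and stimulated cells, where a pseudocount of 1 exceeds every FPKM value of *Itga4*. In the annotation used to look for overlaps, exons of *Itga4* overlap those of *Cerkl* on the opposite strand, and exons of *Icam1* those of *Gm47079*. Whether the counting used strand was not given in the sources used here.

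The α4 partners did not follow α4 in KO, while in unstimulated HZ *Itgb7* was lower and *Itgb1* slightly higher than in WT. *Itgb7* was at 642 and 631 CPM in unstimulated WT, 471 and 477 CPM in HZ and 547 and 557 CPM in KO. Its differences from WT were thus opposite in direction to those of *Itga4*. The difference from WT had a log2 fold change of -0.21 ± 0.027 in KO and -0.42 ± 0.027 in HZ (adjusted p = 1.45e-08 and 2.84e-18 by edgeR), below the fold threshold. *Itgb1*, the β1 subunit shared by α4 and α5, was at 145 and 145 CPM in unstimulated WT, 169 and 171 CPM in HZ and 149 and 150.2 CPM in KO. The *Itgb1* log2 fold change of 0.04 in KO had an interval, 2 SE on each side, from -0.03 to 0.12. In HZ it was 0.23 ± 0.037 (adjusted p = 1.55e-06 by edgeR), in the direction of *Itga4* but below the fold threshold. *Itga5*, the fibronectin receptor α subunit, was at 42.7 and 44.4 CPM in unstimulated WT, 58.5 and 59.1 CPM in HZ and 47.2 and 51.0 CPM in KO, and reached no fold threshold in any comparison. The FPKM ratio of *Itgb7* to *Itga4* was 522 to 573 in unstimulated WT libraries, 128 to 166 in HZ and 181 to 237 in KO.

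*Itgb2*, the β subunit of the leukocyte integrins, was higher in both mutant genotypes, and in HZ mainly before stimulation. Unstimulated libraries held 11.8 and 11.4 CPM in WT, 38.9 and 41.1 CPM in HZ and 25.9 and 27.6 CPM in KO. Stimulated libraries held 11.8 and 11.7 CPM in WT, 17.6 and 15.6 CPM in HZ and 27.9 and 26.4 CPM in KO. WT was lowest in both states, and HZ and KO exchanged places between the states. KO was 2.31-fold above WT unstimulated (log2 fold change 1.21 ± 0.094, adjusted p = 2.92e-15) and 2.30-fold stimulated (1.20 ± 0.097, adjusted p = 1.07e-14) in edgeR's test. HZ was 3.45-fold above WT unstimulated, while the 1.41-fold difference in stimulated cells stayed under the threshold. Stimulated KO was 1.63-fold above stimulated HZ (adjusted p = 3.38e-08). The β2 subunit is also made by macrophages, whose 10 markers summed to 46.4 to 49.4 CPM in unstimulated WT, 36.2 to 37.8 CPM in HZ and 55.4 to 60.2 CPM in KO, with *Csf1r*, *Mrc1*, *C1qa*, *C1qb*, *Cd209a* and *Flt3* at no more than 23 counts in any library. Most of that sum was *Cd68*, at a mean of 39.1, 20.5 and 42.3 CPM in unstimulated WT, HZ and KO. *Lyz2* was at 4.26, 10.2 and 10.9 CPM, with log2 fold changes from WT of 1.26 ± 0.16 in HZ and 1.35 ± 0.16 in KO (adjusted p = 5.40e-09 and 1.01e-09 by edgeR), and *Adgre1* was higher in HZ by 0.72 ± 0.20. Of the 5 macrophage markers tested, 2 were higher and 1 lower in unstimulated HZ, beside 7.63% and 9.11% of all genes. In unstimulated KO 1 was higher, beside 4.96%. In stimulated KO 2 were higher, *Cd14* by 1.25 ± 0.35 and *Lyz2* by 0.86 ± 0.17, and none was lower, beside 5.44% and 7.22%. In stimulated HZ 1 was higher (*Lyz2*) and 1 lower (*Csf1r*), beside 3.56% and 4.33%. The part of these markers in the result was not tested.

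*Icam1*, a ligand of the β2 integrins, moved the other way in KO. It was at 18.7 and 21.1 CPM in unstimulated WT, 24.8 and 21.6 CPM in HZ and 13.1 and 15.2 CPM in KO. After stimulation it was at 19.8 and 24.0 CPM in WT, 16.8 and 14.5 CPM in HZ and 11.8 and 13.1 CPM in KO. The KO libraries were below all WT libraries in each state. Stimulated KO was 1.76-fold below WT (log2 fold change -0.81 ± 0.12, adjusted p = 8.45e-08), and unstimulated KO was 1.64-fold below HZ (-0.71 ± 0.11, adjusted p = 4.38e-07). The difference of unstimulated KO from WT, a log2 fold change of -0.49 ± 0.11, had an adjusted p of 0.000279 by edgeR but stayed under the fold threshold.

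*Cadm1*, the homophilic adhesion molecule of mast cells, was highest in HZ. Unstimulated libraries were at 37.6 and 41.7 CPM in WT, 106 and 109 CPM in HZ and 64.2 and 60.1 CPM in KO. Stimulated libraries were at 41.1 and 39.6 CPM in WT, 82.0 and 77.9 CPM in HZ and 59.1 and 58.9 CPM in KO. The 3 genotypes did not overlap in either state, in the order WT, KO, HZ. Unstimulated HZ was 2.71-fold above WT (log2 fold change 1.44 ± 0.057, adjusted p = 4.82e-26) and unstimulated KO 1.57-fold (0.65 ± 0.059, adjusted p = 4.27e-13) by edgeR. The KO difference lay close to the 1.5-fold threshold: without the first unstimulated WT library its log2 fold change was 0.58, and in stimulated cells it was 1.46-fold, so neither passed. Unstimulated KO was 1.73-fold below HZ (-0.79 ± 0.055, adjusted p = 9.99e-17).

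*Cd44* was lower in KO than in WT in both states. Unstimulated libraries were at 71.5 and 74.1 CPM in WT, 50.5 and 48.5 CPM in HZ and 41.2 and 42.0 CPM in KO. Stimulated libraries were at 95.2 and 97.7 CPM in WT, 43.3 and 48.7 CPM in HZ and 51.9 and 55.3 CPM in KO. All WT libraries were above all others, whether stimulated or not. KO was 1.75-fold below WT unstimulated (log2 fold change -0.81 ± 0.059, adjusted p = 4.68e-16) and 1.80-fold stimulated (-0.85 ± 0.059, adjusted p = 6.92e-17) in edgeR's test. Stimulated HZ was 2.10-fold below WT (-1.07 ± 0.059, adjusted p = 3.82e-20), and in unstimulated HZ the log2 fold change of -0.56 missed the fold threshold.

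**Figure D3:**
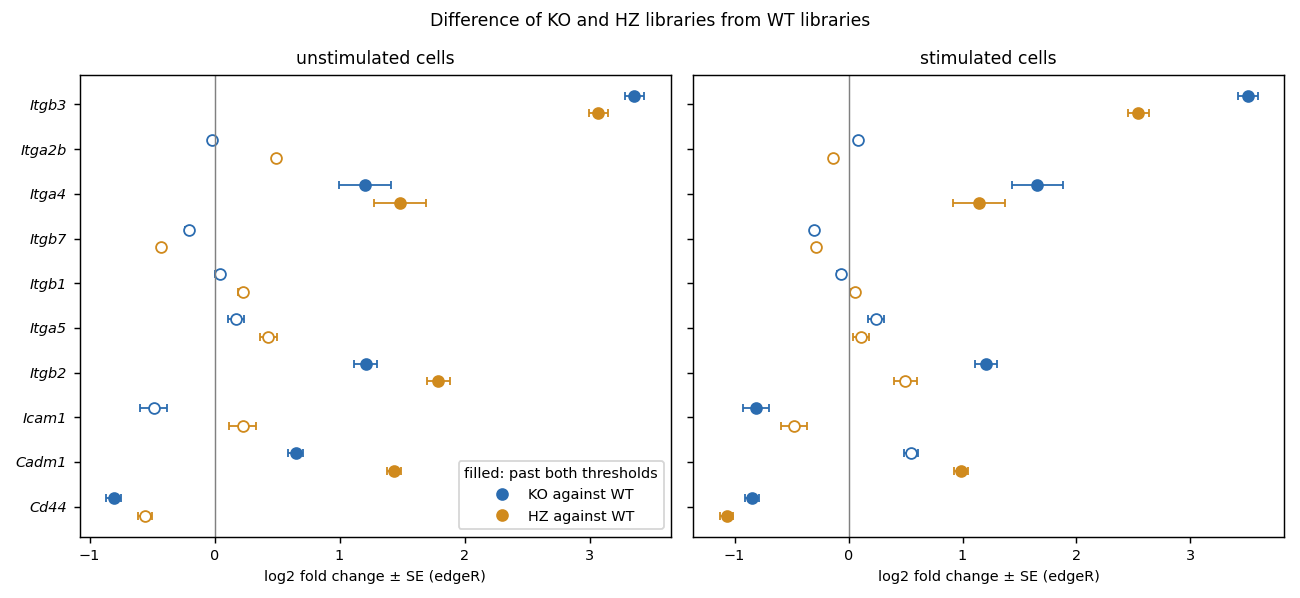
Log2 fold change from WT (horizontal axis, with its SE) of the 10 genes in unstimulated (left) and stimulated (right) cells, blue for KO and orange for HZ, with filled points past an adjusted p of 0.05 and a fold of at least 1.5 or at most 0.66. *Itgb3* lies farthest to the right in all 4 comparisons, from 2.54 to 3.50, and *Cd44* lies to the left of 0 in all 4.

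Counted over the 10 genes, unstimulated KO against WT gave 4 genes higher (*Itgb3*, *Itga4*, *Itgb2*, *Cadm1*) and 1 lower (*Cd44*), beside 4.96% and 7.72% of all genes tested that passed in these directions. The median log2 fold change of the 10 was 0.11, and that of all genes 0.02. Unstimulated HZ against WT gave 4 genes higher (*Itgb3*, *Itgb2*, *Itga4*, *Cadm1*) and none lower, beside 7.63% and 9.11% of all genes, with medians of 0.46 and 0.00. Of the 10, 2 had an unadjusted p below 0.05 in the lower direction there, and neither DESeq2 nor limma on log2(FPKM + 1) called any lower. The share of all genes by unadjusted p was not computed, so such counts here and below cannot be set against it. Both comparisons use the same WT libraries, so they are not independent of each other. The 10 genes and the gene lists were chosen with earlier results of these data known. Their counts beside these shares, here and below, are therefore a description and no test of adhesion genes as a class.

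In stimulated cells, KO against WT gave 3 genes higher (*Itgb3*, *Itga4*, *Itgb2*) and 2 lower (*Cd44*, *Icam1*), beside 5.44% and 7.22% of all genes. HZ against WT gave 3 higher (*Itgb3*, *Itga4*, *Cadm1*) and 1 lower (*Cd44*), beside 3.56% and 4.33%, again with shared WT libraries. Between KO and HZ, the unstimulated cells gave 2 genes lower in KO (*Cadm1*, *Icam1*) and none higher, beside 4.77% and 4.83%. The stimulated cells gave 2 higher (*Itgb3*, *Itgb2*) and none lower, beside 1.81% and 3.51%. For these counts of 0 by edgeR, 2 genes higher in the unstimulated and 3 lower in the stimulated comparison had an unadjusted p below 0.05, and DESeq2 and limma also called none.

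The response to 1 h of DNP-HSA was small for these genes in WT and KO cells and a call needed a change of 2-fold or more besides an adjusted p below 0.05. None of the 10 passed in WT, beside 3.71% of all genes that rose and 3.06% that fell, and none passed in KO, beside 3.73% and 2.88%. By unadjusted p below 0.05 there were 2 genes in each direction in WT and 3 in each in KO, and DESeq2 and limma called none in either. The shares above do not apply to these unadjusted counts, since the share of all genes by that rule was not computed. *Cd44* had the largest upward value in WT, from 71.5 and 74.1 to 95.2 and 97.7 CPM, a log2 fold change of 0.41 ± 0.057 (adjusted p = 4.83e-08 by edgeR), and 0.36 ± 0.061 in KO. *Itgb3* had log2 fold changes of -0.39 ± 0.11 in WT and -0.25 ± 0.062 in KO. *Itga5* had -0.26 ± 0.068 in WT and -0.19 ± 0.067 in KO.

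These responses are relative to the bulk of genes, since unstimulated libraries had TMM factors of 1.08 to 1.12 and stimulated ones of 0.902 to 0.924. With library totals in place of TMM, the median of all genes moved to -0.32 in WT, -0.24 in HZ and -0.30 in KO on the log2 scale. The value of *Itgb1* in WT, 0.19 ± 0.038 by TMM, was then -0.11, and those of *Icam1*, *Cadm1* and *Itgb2* in WT also changed sign. *Cd44* kept its sign in WT and KO, at 0.098 and 0.075, but its adjusted p rose to 0.12 and 0.28.

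In HZ cells most of the 10 genes had lower levels after stimulation. *Itgb2* fell 2.41-fold, from 38.9 and 41.1 to 17.6 and 15.6 CPM (log2 fold change -1.27 ± 0.089, adjusted p = 4.41e-17 by edgeR), while the stimulated and unstimulated libraries overlapped in WT and in KO. It was the only member of the 10 past both thresholds in HZ, beside 7.28% of all genes that fell, and none rose, beside 7.02%. Another 6 had an adjusted p below 0.05 in the lower direction without reaching 2-fold, from *Itgb3* at -0.92 to *Cadm1* at -0.43, and *Itgb7* was the 1 with such a p in the higher direction, at 0.09. By adjusted p alone, 31.6% of all genes tested were lower and 32.9% higher. DESeq2 and limma also called no gene higher. The median of the 10 was -0.57 in HZ, against -0.01 in WT and -0.03 in KO. With library totals *Itgb3* passed as well, at -1.15, and the 0.09 of *Itgb7* became -0.14.

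The difference in response itself was tested as an interaction at an adjusted p below 0.05. Responses were compared with their sign here and below. A smaller response is thus one further down or less far up, which need not be weaker. Between HZ and WT, 8 of the 10 genes had a smaller response in HZ in this sense and 1, *Itgb7*, a larger one, beside 18.6% and 19.9% of all genes. For example, *Itgb2* had log2 fold changes of 0.02 in WT and -1.27 in HZ, and *Cd44* had 0.41 and -0.11. *Itgb2* differed most, by -1.29 ± 0.14 on the log2 scale (adjusted p = 6.69e-11 by edgeR). *Icam1* followed at -0.70 ± 0.15 and *Itga2b* at -0.63 ± 0.031, whose CPM in HZ went from 2413 and 2420.4 to 1511 and 1535. The differences of *Itgb3*, *Cd44*, *Cadm1*, *Itga5* and *Itgb1* lay between -0.53 and -0.17. Without the first stimulated HZ library *Itgb1* had an adjusted p of 0.062, and without the second *Itga5* had 0.080. *Itgb1* also lost its call with library totals, where the difference was -0.095 (adjusted p = 0.16), and by limma on FPKM with a filter, at -0.093 and -0.095. *Itga5* lost its call in 2 limma fits, with adjusted p of 0.057 and 0.080. *Itga4* was the gene that did not pass, at -0.34 ± 0.31. The mast cell markers moved with these genes: 9 of the 10 had a smaller response in HZ than in WT, their sum went from 55807 and 57243 CPM to 48907 and 49658 CPM in HZ, and *Elk4* had a difference of -0.41 ± 0.084. The part of these in the result was not tested.

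Between KO and WT, *Itga2b* alone of the 10 had a different response, larger by 0.10 ± 0.031 on the log2 scale (adjusted p = 0.034 by edgeR), and none was smaller, beside 5.44% and 3.83% of all genes. Without any 1 of the 8 libraries concerned its adjusted p was 0.064 to 0.16, so this call needed all of them. For the smaller direction, 3 genes had an unadjusted p below 0.05, and DESeq2 and limma called none.

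**Figure D4:**
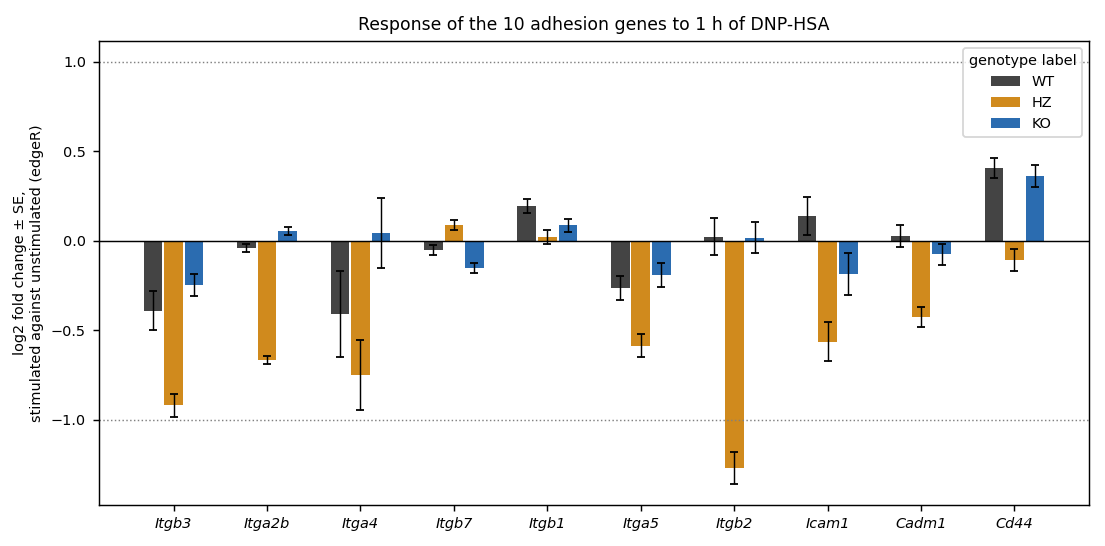
Log2 fold change of stimulated against unstimulated cells (vertical axis, bars from 0, with the SE) for each gene in WT (grey), HZ (orange) and KO (blue), with dotted lines at 2-fold. *Itgb2* in HZ, at -1.27, is the only bar beyond a dotted line, and HZ bars are the lowest of the 3 for 9 of the 10 genes, *Itgb7* being the exception.

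Of 20 other integrin subunits, 12 were tested, and in unstimulated KO against WT 2 were higher, 1 was lower and 9 did not pass. The shares of all genes tested were 4.96% higher and 7.72% lower, and the 12 had a median log2 fold change of 0.00. *Itgax*, the αX partner of β2, was at 7.57 and 5.60 CPM in unstimulated WT and at 1.84 and 1.35 CPM in KO (log2 fold change -2.04 ± 0.27, adjusted p = 1.56e-08 by edgeR), opposite to *Itgb2*. *Itgae*, the αE partner of β7, was at 0.483 and 0.286 CPM in WT and 1.33 and 1.38 CPM in KO (1.82 ± 0.50, adjusted p = 0.0025). *Itgb6*, an αV partner, was at 0.483 and 1.34 CPM in WT and 2.21 and 1.92 CPM in KO (1.17 ± 0.42, adjusted p = 0.021). In stimulated KO against WT *Itgax* was again lower, at -2.13, and *Itgae* and *Itgb6* were higher, at 1.74 and 2.26. On stimulation of WT cells *Itgb4* fell by 1.53 on the log2 scale, at under 1.5 CPM in every WT library. *Itgb6* had a log2 fold change of -1.51 there, but its libraries overlapped, at 0.483 and 1.34 CPM before and 0.539 and 0.101 CPM after.

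Of 37 other adhesion receptors and ligands, 21 were tested, and in unstimulated KO against WT 3 were higher, 6 were lower and 12 did not pass. Of all genes tested, 4.96% were higher and 7.72% lower by the same thresholds. *Podxl*, a sialomucin of the CD34 family, was at 1.87 and 2.20 CPM in WT and at 10.7 CPM in both KO libraries (log2 fold change 2.39 ± 0.18, adjusted p = 1.22e-15 by edgeR). *Jaml*, a junctional adhesion molecule of leukocytes, was at 6.16 and 6.89 CPM in WT and at 0.240 and 0.169 CPM in KO, and in stimulated KO it had only 2 and 3 counts. *Spp1*, which encodes the integrin ligand osteopontin, was at 3.26 and 2.43 CPM in unstimulated WT and at 6 and 0 counts in unstimulated KO. After stimulation *Spp1* reached 7.54 and 9.50 CPM in WT, 4.42 and 3.92 CPM in HZ and 4.42 and 4.90 CPM in KO, and it rose in every genotype. Its response was larger than in WT by 4.18 ± 0.57 in KO and by 1.96 ± 0.45 in HZ (adjusted p = 2.93e-07 and 0.000376 by edgeR). These differences rest on low unstimulated levels, 6 and 0 counts in KO and 14 and 10 counts in HZ. *Fn1*, which encodes fibronectin, also rose in all 3, to between 0.335 and 1.75 CPM.

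Of 38 adaptors and activators that link integrins to actin or switch them on, 34 were tested, and in unstimulated KO against WT 2 were higher, 5 were lower and 27 did not pass both thresholds. Both thresholds were passed by 4.96% of all genes in the higher and 7.72% in the lower direction. By adjusted p alone, 7 were higher and 12 lower, and the share of all genes by that rule was not computed. *Tns1*, which encodes the β-tail binding adaptor tensin 1, was at 7.12 and 6.89 CPM in unstimulated WT, 34.7 and 31.8 CPM in HZ and 95.0 and 97.1 CPM in KO. Its libraries did not overlap between genotypes, and the KO difference from WT was 3.78 ± 0.082 (adjusted p = 1.39e-36 by edgeR). *Skap1*, an adaptor on the route from receptor signals to integrin activation, was at 26.4 and 25.0 CPM in WT, 15.4 and 15.0 CPM in HZ and 5.95 and 5.97 CPM in KO (-2.11 ± 0.12). On stimulation *Rassf5*, which encodes the RAP1 effector RAPL, rose in every genotype, in WT from 163 and 164 to 455 and 456 CPM (1.48 ± 0.034). *Fermt2*, which encodes kindlin-2, rose in WT from 29.5 and 28.3 to 83.9 and 80.4 CPM (1.51 ± 0.064), and its response was larger in KO by 0.43 ± 0.095. Its KO libraries were nevertheless below WT in both states, at 16.4 and 16.0 CPM before and 61.9 CPM in both after stimulation. In the difference of HZ from WT response, taken with its sign, 12 of the 34 were smaller and 4 larger, beside 18.6% and 19.9% of all genes.

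Of 12 partners of CD44, 9 were tested. In unstimulated KO against WT 1 was lower and 8 did not pass, beside 7.72% of all genes that were lower and 4.96% higher. The lower gene was *Hmmr*, a hyaluronan receptor that also acts in the mitotic spindle, at 44.5 and 46.5 CPM in WT, 14.5 and 16.2 CPM in HZ and 12.7 and 10.3 CPM in KO (log2 fold change -1.99 ± 0.094, adjusted p = 5.58e-23 by edgeR). In stimulated KO *Hmmr* was lower again, at -1.86, and so was the hyaluronidase gene *Hyal2*, at -0.94 ± 0.32.

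Across the 12 libraries, whose 6 groups shape any correlation, the members fell into patterns that are given as a description only. *Itga4* and *Itgb3* had a Pearson r of 0.95 on log2 CPM, *Itga4* and *Itgb2* 0.91, and *Itgb3* and *Itgb2* 0.90. *Itgb3* and *Cd44* had -0.91, as had *Cadm1* and *Itgb7*. Among all genes tested, those most like *Itgb3* were *Muc13* and *F13a1* (r of 0.996 for both), those most like *Itgb2* were *Tspan13* and *Galnt18* (0.99 and 0.98), and those most like *Cadm1* were *C1qtnf6* and *9530068E07Rik* (0.99 and 0.97). *Cd44* was most like *Il2ra* and *Susd6* (0.98 and 0.97), and *Icam1* most like *Itm2a* and *Palm* (0.96 and 0.95). The nearest genes to *Itga4* were *Zfp503* and *Zfp609*, to *Itgb7* *Ppm1h* and *Synrg*, to *Itgb1* *Rpl4* and *Aga*, to *Itga5* *Sgsh* and *Tprgl*, and to *Itga2b* *Tap2* and *Eva1b*, with r between 0.94 and 0.98.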

How the data were processed

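RNA of mouse BMMCs was profiled by RNA-seq in 12 libraries. The authors deposited raw counts per gene, and FPKM values that the ratio of counts to FPKM shows to be scaled by gene length and library total. The submitters' processing notes name fastp, HISAT2, HTSeq and the build GRCm39, and the annotation was not given in the sources used here. The analysis of counts used edgeR 4.0.16 (R 4.3.3). After filterByExpr at its defaults and TMM scaling, a quasi-likelihood model of the 6 group means was fitted (common dispersion 0.00161, prior count 0.125). Two-sided p-values were adjusted over the 12208 genes tested by the Benjamini-Hochberg method. The thresholds were for stimulation an adjusted p below 0.05 with a log2 change of 1 or more in either direction, the same p with a fold of at least 1.5 or at most 0.66 between genotypes, and that p alone for differences in response. Standard errors were derived from the F statistic. DESeq2 1.42.0, limma 3.58.1 on log2(FPKM + 1), other scalings, filters and thresholds, a replicate block and leaving out each library were alternatives. Scripts were tested on simulated data. The members, gene lists and marker lists were chosen with earlier results of these data known. From each list the genes named were the 2 with the largest change past the thresholds in stimulated against unstimulated WT and in KO against WT in each state, at a mean of at least 1 CPM in the higher group. For each member, the 2 genes with the highest Pearson r over the 12 libraries were also named. Promoter windows came from RefSeq, build GRCm38.p6, and were searched on both strands. Exon overlaps came from GENCODE vM21. No library was left out.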

Additional observations from a re-analysis of the deposited data

Results flagged for a closer look

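These results are listed because the response to stimulation differed between genotypes by the test of the difference itself in edgeR. Against WT, the log2 response in HZ differed by -1.29 for *Itgb2* (adjusted p = 6.69e-11), by -0.70 for *Icam1* (0.000223), by -0.63 for *Itga2b* (5.74e-22), by -0.53 for *Itgb3* (0.000717) and by -0.51 for *Cd44* (1.56e-06). It differed by -0.45 for *Cadm1* (1.37e-05), by -0.32 for *Itga5* (0.00551), by -0.17 for *Itgb1* (0.00798) and by 0.14 for *Itgb7* (0.00262). In KO the response differed from that in WT by 0.10 for *Itga2b* (adjusted p = 0.0344). *Itgb2*, *Itga2b*, *Itga5*, *Cadm1*, *Icam1* and *Itga4* had their highest mean level of the 6 groups in unstimulated HZ cells. With 2 libraries in each group, no group was large enough to be examined for a library far from the others.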

How the results depend on the processing

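Of 374 counts of the 10 genes recomputed under the alternatives, 339 stayed within 1.5 times the value reported and 35 did not. Of 1648 log2 fold changes, none that passed changed sign, 24 no longer passed and 9 newly passed. Without the fold threshold, the counts higher and lower on stimulation became 2 and 2 for WT, 1 and 7 for HZ and 2 and 3 for KO. Between unstimulated groups there were then 3 lower in KO against WT, 7 higher and 2 lower in HZ against WT, and 2 higher and 7 lower in KO against HZ. Between stimulated groups there were 6 higher in KO against WT, 4 lower in HZ against WT, and 4 higher and 3 lower in KO against HZ. On stimulation in HZ, 31.6% of all genes tested were lower and 32.9% higher without the fold threshold. Such shares were not computed for the other comparisons, so these counts cannot be set against them. With library totals, 2 genes fell in HZ (*Itgb3* at -1.15 beside *Itgb2*) and 1 was lower in unstimulated HZ against WT (*Cd44* at -0.61). By limma on FPKM, 2 fell in HZ under each of 3 settings. With a pseudocount of 1, 2 were higher in unstimulated KO against WT (*Cadm1* did not pass, at 0.43) and 1 was lower in KO against HZ. With a pseudocount of 0.1, 1 was lower in unstimulated HZ against WT. *Itga4* lost its 4 calls against WT with a pseudocount of 1 and no filter (0.21 to 0.40), and it fell below the FPKM minimum of 0.5 in the limma fits with a filter and had no value there. In the HZ response, *Itgb1* lost its call with library totals and in 2 limma fits, and *Itga5* in 2. The cause of these changes was not tested, except that a pseudocount shrinks low values.

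Leaving out 1 library at a time, the count lower in stimulated HZ against WT was 1 to 2, since *Icam1* passed at -0.61 without the first stimulated WT library. The count with a larger response in KO was 0 in all 8 cases, and was 0 at an adjusted p below 0.01. *Itgb2* was lower in unstimulated KO than in HZ, at -0.62, without the first HZ or the second KO library. DESeq2, DESeq2 size factors and the filters on counts left the member counts as reported.

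The replicate numbers were not shown to pair the libraries: the deviations of stimulated and unstimulated libraries with the same number were correlated over 9858 genes with r of -0.028 (WT), 0.067 (HZ) and -0.012 (KO). With a replicate block the counts were unchanged, for example 4 higher and 1 lower in unstimulated KO against WT. The lowest member, *Itga4*, had 1.62 to 8.49 CPM, and its standard errors of 0.19 to 0.31 limit what could be seen for it.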
